A study of Mus musculus with 30 samples.

Results

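Adult and juvenile mouse lungs were compared by the transcript levels they reached after inhaled lipopolysaccharide (LPS) followed by mechanical ventilation. The 7 arrays concerned were chosen by age and treatment from the 30 arrays of the study, with no control array in the contrast. They are 4 arrays from adult C57BL/6 mice aged 16 weeks and 3 arrays from juvenile C57BL/6 mice aged 21 days, each from 1 animal. All 7 animals inhaled an aerosol of Escherichia coli 0111:B4 LPS, nebulised from 20 mL at 0.1 mg/mL over 30 minutes. Ventilation followed at once for 2 hours, with a tidal volume of 15 mL/kg, 30% oxygen and 2 cm H2O of positive end-expiratory pressure. Untreated lungs of both ages that breathed spontaneously (4 and 4 arrays), and both ages after LPS alone (4 and 4) or after ventilation alone (4 adult and 3 juvenile), served as references. No group carries a genetic change. The question is which transcripts stand at different levels in the 2 ages after the combined injury, and which of these differences also separate untreated lungs.

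LPS is an outer membrane component of Gram-negative bacteria. It is sensed by the receptor TLR4 with CD14, which drives the transcription factor NF-kB and the production of cytokines and of chemokines that recruit neutrophils, and in parallel a type I interferon response. Ventilation with large breaths stretches the alveolar wall and can add to this inflammation. The lung of a mouse at weaning is still laying down elastin and collagen in its growing alveolar walls, and its immune cells are still maturing.

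Total RNA of whole lungs was measured on Affymetrix mouse expression arrays. The median intensity of the 7 arrays lay between 21.9 and 22.5 and the upper quartile between 104 and 109. Precision is limited by how few arrays there are per group. Values below are intensities per array, in the order of the replicate numbers, with means ± SD. A difference is the adult minus the juvenile mean of log2(intensity + 32) ± its standard error, from a fit that shares its spread over all 30 arrays. Adding 32 makes the differences of dim genes smaller than their intensity ratios. The surfactant gene Sftpc, which marks alveolar type 2 cells, read from 18124 to 21363 on all 7 arrays. The LPS-induced chemokine Cxcl10 read from 1920 to 5499, against means of 30.4 ± 14.4 (SD, n = 4) in untreated adults and 19.5 ± 2.85 (SD, n = 4) in untreated juveniles, so tissue and LPS treatment matched their labels. The sex-linked transcript Xist was high on 3 of 4 adult and 2 of 3 juvenile arrays, and sex is not given in the labels. It was also high on 0 of 4 adult and 1 of 4 juvenile controls, on none of the 8 arrays after LPS alone, and on 4 of 4 adult and 1 of 3 juvenile arrays after ventilation alone. Every change of the age difference between conditions is therefore mixed with Xist status, apart from what a fit with an Xist term separates. Adult replicate 2 stood apart by its fat and immunoglobulin transcripts. Juvenile replicate 3 stood apart by the heat shock gene Hspa1a, at 2915 against 257 and 239 on the other juvenile arrays.

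After LPS and ventilation, 1602 of 13089 genes (12.2%) differed between the ages at an adjusted p under 0.05. Of these, 955 (7.30%) were higher in adults and 647 (4.94%) were lower. Counts of list members below are to be read against these shares. Of the 1602, 100 genes (0.764% of those tested) differed at least 2-fold on the log2(intensity + 32) scale, 40 higher and 60 lower in adults. The median difference of all genes was 0.01. For 24.2% of all genes the 4 adult and 3 juvenile intensities did not overlap (13.6% with adults higher, 10.6% with adults lower), and 1419 of the 1602 were among these. The count was 1010 without juvenile replicate 1 and 1043 without juvenile replicate 2. Without adult replicate 4 and juvenile replicate 1, the arrays of low Xist among the 7, it was 919.

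Untreated lungs differed by age in 3301 genes (25.2%), 1982 of them higher (15.1%) and 1319 lower (10.1%) in adults. Counts of list members in controls are to be read against these shares. The 2 comparisons share no array. Of the genes passing after LPS and ventilation, 912 also passed in untreated lungs, 889 in the same direction and 23 in the opposite one. The 530 genes higher in adults in both made up 55.5% of those higher after treatment and 26.7% of those higher in controls. The 359 lower in both made up 55.5% and 27.2%. In the scatter of both age differences, Eln and Slc4a1, a red cell gene, lie far below 0 on both axes. Ifit1, Camp and Ngp lie below the line of equal differences, and Cxcl3 and Rsad2 lie above it.

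**Figure D1:**
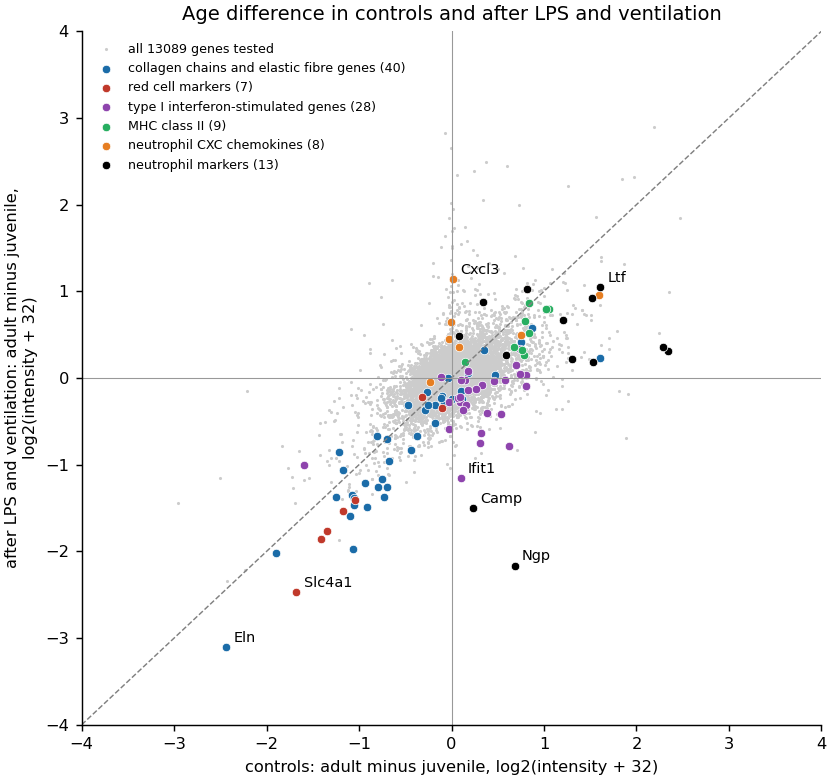
Age difference of each of the 13089 genes in controls (horizontal axis) and after LPS and ventilation (vertical axis), both as adult minus juvenile log2(intensity + 32), with 6 gene lists in colour and the line of equal differences dashed. Eln is the lowest point on the vertical axis at -3.11, and Cxcl3 sits at 0.02 in controls and 1.14 after treatment.

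The gene with the widest gap between the ages on the log2(intensity + 32) scale belongs to the extracellular matrix. Elastin (Eln), the core protein of elastic fibres, read 424, 413, 302 and 506 in adults and 4473, 4258 and 2715 in juveniles. The lowest juvenile array was thus above the highest adult array, and the juvenile mean was 9.28-fold the adult mean (difference -3.11 ± 0.19, adjusted p = 2.9e-11). Mfap4, a microfibril-associated protein, read 1026, 956, 956 and 1237 in adults and 4289, 4961 and 3782 in juveniles (-2.02 ± 0.27, adjusted p = 1.0e-05). Of 17 elastic fibre genes tested, 11 were lower and 2 higher in adults (median -0.31), where 12.2% of all genes passed in either direction. The latent TGF-beta binding protein Ltbp2 (-1.46 ± 0.17), Mfap2 (-1.06 ± 0.15), the crosslinking enzymes Lox (-0.86 ± 0.15) and Loxl1 (-0.83 ± 0.10), and fibulin 5 (Fbln5, -0.70 ± 0.13) were lower. Efemp1, a fibulin, was higher (0.58 ± 0.11). As the RNA comes from whole lungs, fewer cells of a type and less RNA per cell cannot be told apart.

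Collagen chains showed the same direction. Of 23 tested, 16 were lower and 1 was higher in adults (median -0.96). Col1a1, a chain of the fibrillar type I collagen, read 265, 280, 229 and 432 in adults and 1142, 1222 and 1397 in juveniles (-1.98 ± 0.20, adjusted p = 1.4e-07). The adult and juvenile arrays were far apart. Its partner Col1a2 differed by -1.49 ± 0.14, the type III chain Col3a1 by -1.59 ± 0.13, Col5a2 by -1.38 ± 0.11, and the microfibrillar type VI chains Col6a1 and Col6a2 by -1.17 ± 0.11 and -1.39 ± 0.12. Sparc, a collagen-binding glycoprotein, read 3801 to 5086 in adults and 8652 to 9951 in juveniles (-1.12 ± 0.08, or -0.69 with the mean of its probe sets). Among metalloproteases, Mmp2, a gelatinase, was lower in adults (-1.29 ± 0.13) and the stromelysin Mmp3 was higher, at 446, 454, 561 and 449 against 217, 303 and 227 (0.87 ± 0.20, adjusted p = 0.0043).

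In untreated lungs 11 of 17 elastic fibre and 15 of 23 collagen genes were lower in adults, so the matrix difference was present before injury. Eln differed by -2.44 there and by -3.11 after LPS and ventilation. The change between these was -0.67 ± 0.26 and did not pass (adjusted p = 0.17). Col1a1 differed by -1.06 in controls (change -0.91 ± 0.27, adjusted p = 0.068). No elastic fibre or collagen gene passed the limma test of this change, where 2.10% of all genes did. At that share a short list can hold none. Sparc did, its age difference growing from -0.67 to -1.12 (change -0.44 ± 0.11, adjusted p = 0.028). That call ended with the mean of its probe sets (adjusted p = 0.18) and without juvenile control replicate 1 or 2, juvenile replicate 1 or 2, or adult replicate 2 or 3 (0.051 to 0.068).

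Of 33 growth factor and imprinted genes of lung development, 20 did not pass, 12 stood lower in adults and 1 stood higher (median -0.21). Without juvenile replicate 1 these counts were 7 and 0. Peg3, an imprinted gene of early growth, read 66.8, 72.6, 67.5 and 71.4 in adults and 417, 409 and 494 in juveniles (-2.21 ± 0.15, adjusted p = 2.2e-10). Adult values were tightly grouped and far below the juvenile ones. Nrep, a gene of growing and regenerating tissue, read 186, 227, 161 and 261 in adults and 1653, 1491 and 660 in juveniles (-2.35 ± 0.27), with juvenile replicate 3 the lowest of its group. The insulin-like growth factor Igf1 differed by -1.40 ± 0.25, but by -0.68 with the mean of its probe sets, of which 1 pointed the other way. The imprinted genes Mest (-1.03 ± 0.15, or -1.57 with a pseudocount of 1) and Plagl1 (-0.78 ± 0.14, or -0.46 with the mean of its probe sets) and the hedgehog inhibitor Hhip (-0.91 ± 0.15) were lower as well. In untreated lungs 7 of the 33 were lower and 4 higher in adults. Peg3 (-2.24), Nrep (-2.42), Igf1 (-1.19), Mest (-1.77) and Hhip (-0.57) were lower in adults there too, while Plagl1 did not pass (-0.23).

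Pdgfb, the platelet-derived growth factor that recruits pericytes, read 394, 380, 395 and 385 in adults and 682, 757 and 625 in juveniles (-0.77 ± 0.11, adjusted p = 1.4e-05). Untreated lungs held 593 ± 50.4 (SD, n = 4) in adults and 575 ± 90.9 (SD, n = 4) in juveniles, so the means differed by less than either SD (difference 0.05). The change in the age difference passed, at -0.82 ± 0.15 (adjusted p = 0.0045). Its receptor Pdgfrb was lower in adults after treatment (-0.95 ± 0.15), but had been lower in untreated adults too (-0.40, adjusted p = 0.04). The change of Pdgfrb did not pass (adjusted p = 0.15).

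**Figure D2:**
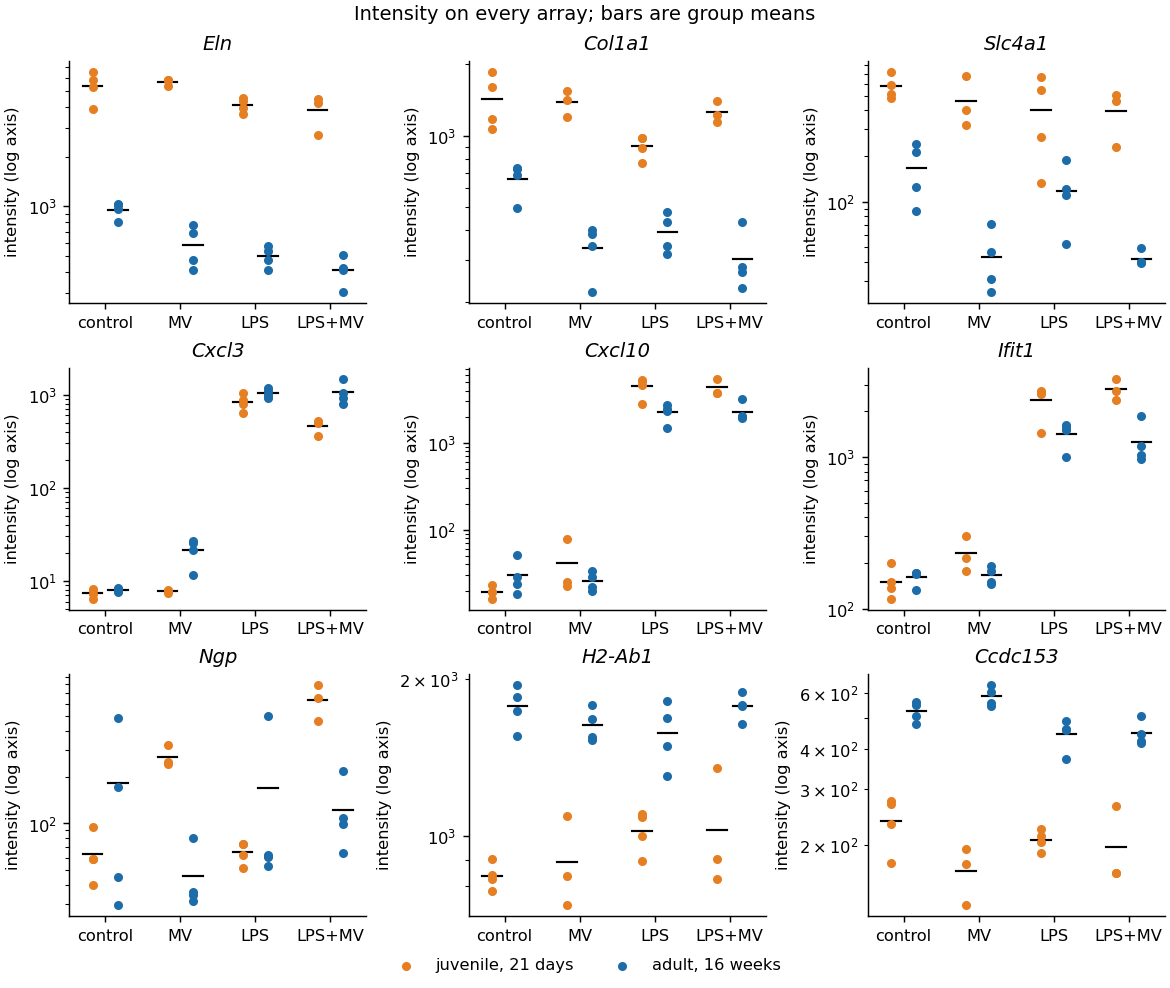
Intensity of 9 genes on every array, on log axes, for juvenile (orange) and adult (blue) lungs in the 4 conditions (control; MV, ventilation; LPS; LPS+MV), with bars at the group means. Eln and Col1a1 are higher in juveniles in all 4 conditions, while Cxcl3 has means of 8.02 and 7.46 in controls and stands at 1056 in adults and 455 in juveniles after LPS and ventilation.

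Of 8 chemokines and receptors that attract neutrophils, 4 were higher in adults and none lower (median 0.57), where 7.30% of all genes were higher. Cxcl3, a ligand of the neutrophil receptor CXCR2, read 923, 784, 1034 and 1485 in adults and 492, 515 and 358 in juveniles. No adult array fell as low as any juvenile array, and the difference was 1.14 ± 0.15 (adjusted p = 1.1e-05). Cxcl3 was near background in untreated lungs of both ages (8.02 ± 0.32 and 7.46 ± 0.78, SD, n = 4 each). The change in the age difference from controls was 1.12 ± 0.21 (adjusted p = 0.0061). After LPS without ventilation, adults stood at 1044 ± 123 (SD, n = 4) and juveniles at 835 ± 165 (SD, n = 4). Cxcl1, the related ligand KC, read 3362, 2570, 4780 and 3003 in adults against 1454, 2345 and 2802 in juveniles, with overlap. Its difference of 0.65 ± 0.21 passed narrowly (adjusted p = 0.042) and was lost without juvenile replicate 1 or 2 or adult replicate 1 or 3 (adjusted p 0.067 to 0.33).

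The receptor Cxcr2 (1.02 ± 0.33, adjusted p = 0.041) and the platelet chemokine Ppbp (0.95 ± 0.29, adjusted p = 0.032) were the other two. Both had been higher in untreated adults too (0.82, adjusted p = 0.0495, and 1.59, adjusted p = 9.4e-05). Ppbp fell in adults from controls to LPS and ventilation (-1.24 ± 0.27, adjusted p = 0.00059). Of 9 platelet markers, Ppbp included, 9 were higher in adult controls, where 15.1% of all genes were. After LPS and ventilation 2 were higher, Ppbp and Clec1b (0.77 ± 0.23). Adults stood above juveniles without overlap for 8 of the 9, and for 13.6% of all genes. The summed intensity of the platelet markers was 1636 to 2039 in adults and 1034 to 1172 in juveniles after treatment. Their part in the call for Ppbp was not tested. The count of 2 was 0 without juvenile replicate 2 or 3 or adult replicate 4, and 1 without juvenile replicate 1 or adult replicate 2 or 3. The call for Cxcr2 ended without juvenile replicate 1 or 3 or adult replicate 1, 3 or 4 (adjusted p 0.061 to 0.14), and that for Ppbp without any of 6 arrays, all but adult replicate 1 (0.055 to 0.11). The count of 4 fell to 1 without juvenile replicate 1 or adult replicate 3, and to 2 without juvenile replicate 2, juvenile replicate 3 or adult replicate 1. Cxcl2 (0.45 ± 0.20) and the epithelial ligand Cxcl5 (0.36 ± 0.19) did not pass.

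The sequences below are shown because Cxcl3 and Cxcl1, the latter only narrowly, were called higher in adults and NF-kB is a main factor that LPS activates. Whether NF-kB bears on the age difference was not tested. The RefSeq promoter table (GRCm38.p6, 250 bases before to 50 after each start) was searched on both strands for GGGNNNTTCC, a common form of the NF-kB motif. Of its 32851 promoters, 5.56% hold a match. Capitals mark matches, on the strand of the gene; a longer run of capitals is a pair of overlapping matches, 1 on each strand.
Cxcl3, chr5:90786013-90786075, plus strand: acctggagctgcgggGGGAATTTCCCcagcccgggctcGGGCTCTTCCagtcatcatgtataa
Cxcl1, chr5:90891141-90891199, plus strand: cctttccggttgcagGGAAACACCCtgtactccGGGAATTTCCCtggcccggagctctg
Each window holds 3 matches. Cxcl2, Ccl20 and Il1rn also had a match to GGGNNNTTCC, as did Cxcl10 and 1 of the 2 promoters of Ifit2. Ccl12, Csf2, Saa1, Ifit1, Ifit3, Rsad2, Irf7 and Cmpk2 had none. A match is a string of letters in a window and was not measured as a bound site.

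Of 20 CC chemokines and receptors tested, 6 were higher in adults and none was lower (median 0.25), where 7.30% of all genes were higher. Without juvenile replicate 1 the count was 3. Ccl12, a monocyte attractant, read 252, 240, 228 and 264 in adults and 158, 161 and 84.0 in juveniles (0.78 ± 0.12, adjusted p = 7.8e-05). Untreated lungs differed by less than their spread (14.7 ± 2.45 and 15.1 ± 4.62, SD, n = 4 each), and the change in the age difference was 0.79 ± 0.17 (adjusted p = 0.015). Ccl20, a ligand for CCR6 made by airway epithelium, read 1813, 1214, 1302 and 1366 against 798, 1034 and 880 (0.63 ± 0.12, adjusted p = 0.00096), with a change from controls of 0.70 ± 0.17 (adjusted p = 0.028). The change of Ccl12 did not pass with a pseudocount of 1 (adjusted p = 0.072), nor that of Ccl20 without juvenile control replicate 1, adult control replicate 2, juvenile replicate 1 or 3, or adult replicate 1 (0.053 to 0.075). Ccl8 (1.02 ± 0.24) and Ccl6 (0.60 ± 0.15) were also higher. Ccl8 differed by 0.97 in controls, and its response to LPS and ventilation passed at neither age (0.31 ± 0.22 in adults, 0.26 ± 0.24 in juveniles). For Ccl6 the adjusted p was 0.064 without juvenile replicate 1.

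The interleukin 1 receptor antagonist Il1rn read 723, 504, 600 and 564 in adults and 377, 455 and 282 in juveniles. These arrays did not overlap, and the difference of 0.65 ± 0.13 (adjusted p = 0.00088) had changed from controls by 0.72 ± 0.17 (adjusted p = 0.03). The change did not pass without juvenile control replicate 2, adult control replicate 2, juvenile replicate 3, or adult replicate 1 or 3 (adjusted p 0.053 to 0.1). Il18, a cytokine activated by the inflammasome, was at 322 to 364 in adults and 217 to 235 in juveniles (0.52 ± 0.07, adjusted p = 6.3e-06). Of 12 interleukin 1 family genes, 3 were higher in adults and none lower. Il1b itself, at 1962 to 3281 against 1443 to 2713, did not pass (0.52 ± 0.35). Of 9 inflammasome genes, 2 were higher, the inflammatory caspases Casp1 (0.48 ± 0.10) and Casp4 (0.76 ± 0.17). Adults were already higher for 6 of the 9 in untreated lungs, where 15.1% of all genes were higher. Casp1 (0.73), Casp4 (1.003) and Il18 (0.31) were each higher in untreated adults too. For none of these genes did the change in the age difference from controls pass (limma, adjusted p 0.21 to 0.63).

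Csf2, which encodes GM-CSF, read 816, 587, 943 and 761 in adults and 496, 638 and 466 in juveniles. The difference of 0.51 ± 0.17 (adjusted p = 0.041) ended without juvenile replicate 1 or 3 or adult replicate 1, 3 or 4 (adjusted p 0.065 to 0.15). Tnf (0.29 ± 0.13), Il6 (0.07 ± 0.40) and Csf3 (0.37 ± 0.20) did not pass. The spread of Il6 in juveniles was wide, with 440, 854 and 2462. Tlr4 was the 1 of 22 genes of the LPS receptor pathway to pass (0.51 ± 0.11, adjusted p = 0.0035), and the count was 2 without juvenile replicate 2 and 3 without adult replicate 2. Its co-receptor Cd14 was not called (0.26 ± 0.12), at 5632 to 6782 in adults and 4866 to 5292 in juveniles. In untreated lungs 9 of the 22 pathway genes were higher in adults, where 15.1% of all genes were. Tlr4 did not pass there (0.19), and Cd14 did (0.60).

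Slc26a4, an airway anion exchanger induced in inflammation, was among the 12 genes with the largest adult excess without overlap. It read 687, 667, 516 and 610 in adults and 242, 269 and 230 in juveniles (1.22 ± 0.16, adjusted p = 8.6e-06), with a change from controls of 1.01 ± 0.22 (adjusted p = 0.016, or 0.21 with a pseudocount of 1). Cxcl13, which attracts B cells, read 180, 283, 141 and 221 against 95.5, 118 and 48.0 (1.01 ± 0.16). The B cell survival factor Tnfsf13b differed by 0.77 ± 0.12, and by 1.03 in controls. Myc and Egr2, transcription factors of the immediate early response, were higher (0.51 ± 0.13 and 0.72 ± 0.16). The call for Myc ended without juvenile replicate 1 (adjusted p = 0.12).

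Interferon-stimulated genes that passed pointed the other way, with 6 of 28 lower in adults and none higher (median -0.18, where 4.94% of all genes were lower). Ifit1, an antiviral RNA-binding protein, read 1032, 976, 1855 and 1189 in adults and 2358, 2732 and 3292 in juveniles. All juvenile arrays were above all adult arrays, and the difference was -1.16 ± 0.22 (adjusted p = 0.0005). Untreated lungs differed by less than their spread, at 162 ± 19.4 and 150 ± 34.9 (SD, n = 4 each), and the age difference had changed by -1.26 ± 0.29 (adjusted p = 0.024, but 0.066 and 0.074 without juvenile control replicate 1 or juvenile replicate 3). Rsad2, the antiviral enzyme viperin, read 1061, 793, 1484 and 1008 in adults and 2232, 2864 and 1558 in juveniles (-1.0 ± 0.24, adjusted p = 0.005). Unlike Ifit1, it was already lower in untreated adults (-1.59), and the change of 0.59 ± 0.32 did not pass.

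Ifit2 (-0.75 ± 0.19), Ifit3 (-0.79 ± 0.22) and Mx1 (-0.59 ± 0.15, or -1.10 with a pseudocount of 1) were lower in adults too. Without juvenile replicate 2 the count of 6 became 2, and the adjusted p was 0.06 for Rsad2, 0.088 for Ifit2, 0.12 for Ifit3 and 0.11 for Mx1. The call for Ifit3 also ended without adult replicate 2 (0.06). Irf7, a transcription factor of the response, did not pass (-0.31 ± 0.14), nor did the feedback inhibitor Usp18 (-0.42 ± 0.18). In untreated lungs 9 of the 28 were higher in adults and 1 was lower. For Ifit2 the age difference changed from controls by -1.05 ± 0.26 (adjusted p = 0.03), and for Ifit3 by -1.41 ± 0.30 (adjusted p = 0.015), with adults higher before treatment (0.62) and lower after it. The change of Ifit2 did not pass without juvenile control replicate 1, adult control replicate 2, juvenile replicate 2, or adult replicate 1 or 2 (adjusted p 0.054 to 0.086). After LPS alone, adults were lower too for Ifit1 (-0.71), Rsad2 (-0.95), Ifit2 (-1.05), Ifit3 (-1.07) and Mx1 (-0.61). For none of these genes did the age difference change between LPS alone and LPS with ventilation (limma, adjusted p 0.57 to 0.98).

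The interferon-inducible chemokine Cxcl10, which attracts T cells, read 2033, 1920, 3240 and 1994 in adults and 3781, 5499 and 3764 in juveniles. The groups did not overlap, although adult replicate 3 came near the juvenile arrays (-0.92 ± 0.24, adjusted p = 0.01). The call ended without juvenile replicate 2 (adjusted p = 0.09) and with a pseudocount of 1. After LPS alone the means were 2267 ± 545 (SD, n = 4) in adults and 4467 ± 1131 (SD, n = 4) in juveniles. The serum amyloid genes Saa1, at 179, 83.9, 203 and 131 against 280, 485 and 228 (-0.99 ± 0.18, adjusted p = 0.00043), and Saa2 (-0.53 ± 0.11) were lower in adults. Both were lower in adults after LPS alone too (-1.50 and -1.17). After LPS and ventilation their relative Saa3 differed by less than its spread, at 3607 ± 605 (SD, n = 4) and 3589 ± 1082 (SD, n = 3). Other acute phase genes were higher in adults, among them haptoglobin (Hp, 0.33 ± 0.06) and Orm1 (0.80 ± 0.21, or 0.51 without adult replicate 2). For Orm1 the adjusted p was 0.056 without juvenile replicate 1. Hp was higher in untreated adults too (0.45, adjusted p = 2.1e-06), while Orm1 did not pass there (0.08).

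Promoter sequences of juvenile-high genes are shown for the letters to which interferon regulatory and ISGF3 factors bind. The same table was searched on both strands for GAAANNGAAA, which 3.44% of promoters hold. Capitals mark matches, printed on the strand of the gene; in Ifit1, Ifit3 and Rsad2 the motif lies on the other strand.
Ifit1, chr19:34640770-34640828, plus strand: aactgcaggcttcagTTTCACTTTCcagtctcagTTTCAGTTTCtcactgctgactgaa
Ifit3, chr19:34583358-34583431, plus strand: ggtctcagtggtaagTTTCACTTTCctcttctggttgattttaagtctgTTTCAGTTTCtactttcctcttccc
Rsad2, chr12:26456548-26456587, minus strand: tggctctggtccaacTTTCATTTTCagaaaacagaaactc
Cxcl10, chr5:92349078-92349117, minus strand: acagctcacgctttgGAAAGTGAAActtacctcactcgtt
Ifit1 and Ifit3 each hold 2 matches, Rsad2 and Cxcl10 each 1. No match was found in the windows of Ifit2, Irf7, Cmpk2, Saa1, Cxcl1, Cxcl2, Cxcl3, Ccl12, Ccl20, Il1rn or Csf2. No promoter of Mx1, Usp18 or Cxcl5 was available to search.

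Neutrophil genes split. Ngp and Camp, granule proteins that neutrophil precursors make in the marrow, were higher in juveniles. Camp read 18.7, 39.7, 37.2 and 46.2 in adults and 220, 114 and 151 in juveniles (-1.50 ± 0.21, adjusted p = 2.0e-05). Ngp read 64.3, 99.8, 108 and 219 against 793, 460 and 654 (-2.17 ± 0.54, adjusted p = 0.007). Neither gene overlapped between the ages. In untreated lungs neither differed beyond its spread (0.23 and 0.68), and the change in the age difference was -1.74 ± 0.29 for Camp (adjusted p = 0.003) and -2.85 ± 0.73 for Ngp (adjusted p = 0.037). After ventilation without LPS, juveniles were also above adults, with Ngp at 272 ± 42.9 (SD, n = 3) against 45.7 ± 23.6 (SD, n = 4).

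Ltf, a granule protein that airway glands make too, was higher in adults at 240, 741, 687 and 619 against 232, 226 and 262 (1.05 ± 0.27, adjusted p = 0.01). Adult replicate 1 fell within the juvenile range. The mature neutrophil genes S100a8 and S100a9 did not pass, with differences of 0.31 ± 0.56 and 0.36 ± 0.58. Their adult intensities nevertheless lay above the juvenile ones, at 8894 to 10562 against 7701 to 8123 for S100a8. Of the 13 neutrophil markers tested, 2 were higher and 2 lower in adults (median 0.36), and their summed intensity was 20406 to 26602 in adults and 18367 to 19281 in juveniles. In untreated lungs 8 of the 13 were higher in adults and none lower (median 1.21), where 15.1% of all genes were higher. Ltf differed there by 1.61, S100a8 by 2.34 and S100a9 by 2.29. The smaller differences of Ltf, S100a8 and S100a9 after treatment were not called changes (adjusted p 0.15 to 0.43).

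Of 9 MHC class II genes, which present antigen to helper T cells, 6 were higher in adults and none lower (median 0.52, against 8 of 9 and 0.79 in controls). H2-Ab1, a chain of the class II molecule, read 1641, 1776, 1888 and 1785 in adults and 825, 903 and 1352 in juveniles (0.80 ± 0.13, adjusted p = 0.00012). Juvenile replicate 3 was the highest of its group and still below every adult. H2-Eb1 (0.79 ± 0.11), H2-Aa (0.65 ± 0.09), H2-DMa, which loads peptides (0.86 ± 0.12, or 0.51 with the mean of its probe sets), and the invariant chain Cd74 (0.36 ± 0.08) were higher. Of 12 genes of MHC class I processing, 1 was higher after treatment, H2-D1 (0.37 ± 0.12), against 8 of 12 in controls (medians 0.26 and 0.53). The 1 was 0 without juvenile replicate 1 or 2 or adult replicate 1 or 3. No class I or class II gene of these lists passed the limma test of a change from controls, where 2.10% of all genes did.

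Jchain had the largest adult excess of all genes on the log2(intensity + 32) scale. It encodes the joining chain of secreted antibody and read 70.1, 1324, 259 and 477 in adults and 17.5, 21.2 and 17.6 in juveniles (2.90 ± 0.48, adjusted p = 0.00013). Ighm, the heavy chain of IgM, read 360, 5136, 921 and 1736 against 201, 233 and 291 (2.32 ± 0.48, adjusted p = 0.0014, or 0.70 with the mean of its probe sets). The IgA heavy chain Igha (2.30 ± 0.39) and the light chain segment Igkv8-30 (1.35 ± 0.31, or 0.87 without adult replicate 2) were higher as well. Adult replicate 2 was the highest array for all 4 genes, and the adult spread was wide. Reads of Ighm and Igkv8-30 come from probe sets that may bind related transcripts. All of these genes were also higher in untreated adults (2.18, 1.98, 1.84 and 1.62). Of 16 T, B and NK cell markers, 4 were higher and none lower, or 2 without juvenile replicate 1 or 2. Ifi27l2a, an interferon-inducible gene, stood with this group and not with Ifit1, at 1182 to 1735 in adults and 471 to 494 in juveniles (1.40 ± 0.19).

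**Figure D3:**
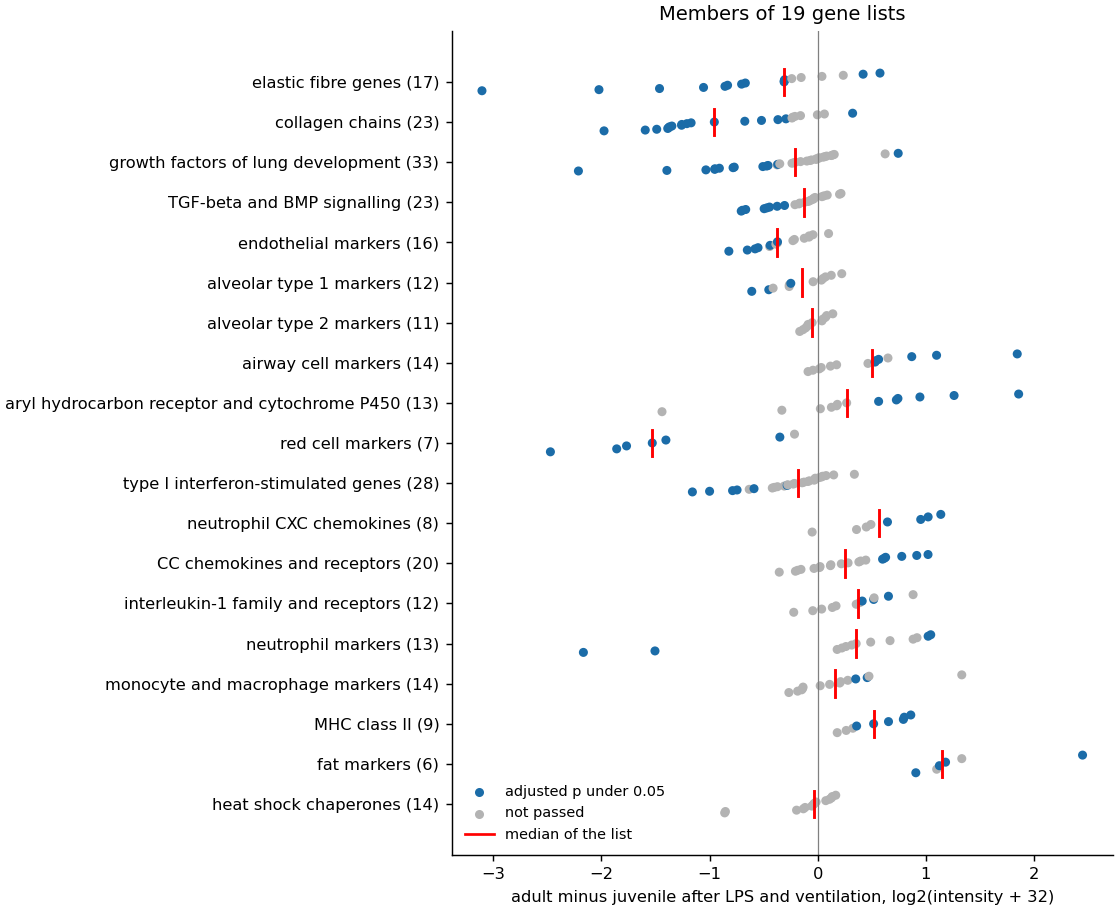
Age difference after LPS and ventilation of every tested member of 19 gene lists, as adult minus juvenile log2(intensity + 32), with blue points for an adjusted p under 0.05, grey points for the rest, and red bars at list medians. Collagen chains (16 of 23) and red cell markers (6 of 7) lie mostly at the left with passing points, while the 11 alveolar type 2 markers stay near 0.

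Red cell genes were higher in juveniles. Slc4a1, the band 3 anion exchanger of the erythrocyte membrane, read 39.3, 40.1, 40.1 and 49.2 in adults and 462, 502 and 231 in juveniles (-2.47 ± 0.37, adjusted p = 4.3e-05). The adult arrays were close together, and juvenile replicate 3 was the lowest of its group but well above them. Of 7 red cell markers, 6 were lower in adults (median -1.53) and Epb42 did not pass (-0.21 ± 0.08). The enzymes Bpgm (-1.86 ± 0.20), Alas2 (-1.77 ± 0.22) and Fech (-1.40 ± 0.22) and the mitochondrial iron carrier Slc25a37 (-1.53 ± 0.25) serve oxygen release or heme synthesis. Tent5c, a poly(A) polymerase abundant in red cell precursors, followed them (-1.87 ± 0.23, or -1.16 with the mean of its probe sets). In untreated lungs 6 of the 7 were also lower in adults (median -1.17). None of the 7 passed the limma test of a change from controls, where 2.10% of all genes did. The summed intensity of the markers was 1347 to 1727 in adults and 4726 to 6256 in juveniles.

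Of 14 airway markers, 6 were higher in adults and none lower (median 0.50). Ccdc153, a gene of motile cilia, read 507, 418, 445 and 425 in adults and 163, 162 and 265 in juveniles (1.10 ± 0.14, adjusted p = 3.7e-06). The dynein light chain Dynlrb2 (0.87 ± 0.13), Tppp3 (0.53 ± 0.13) and Foxj1, the master regulator of cilia (0.53 ± 0.15, or 0.84 without juvenile replicate 3), were higher. The club cell enzyme Cyp2f2 stood at 8974 to 10652 against 5890 to 7533 (0.56 ± 0.09). Scgb1a1, the main club cell secretory protein, did not pass (0.17 ± 0.06). Bpifa1, a surfactant-like protein of the upper airway, read 2120, 6045, 5183 and 4168 against 839, 1212 and 1356 (1.84 ± 0.52, adjusted p = 0.018).

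The call for Bpifa1 ended without juvenile replicate 1 or adult replicate 2 or 3 (adjusted p 0.052 to 0.092), that for Foxj1 without juvenile replicate 1 or 2 or adult replicate 1 (0.062 to 0.19), and that for Tppp3 without juvenile replicate 2 (0.053). Xenobiotic enzymes were higher in 6 of 13 cases and lower in none. Cyp2e1, which oxidises small solvents, read 155, 410, 410 and 971 against 75.4, 72.0 and 125 (1.86 ± 0.35), a wide adult range. The airway P450 Cyp2s1 (0.95 ± 0.12), the sulfotransferase Sult1d1 (1.21 ± 0.24) and Aldh3a1 (1.26 ± 0.30, or 0.81 without adult replicate 2; adjusted p = 0.055 without juvenile replicate 1) were higher. In untreated lungs 7 of the 14 airway markers were higher in adults and none lower (median 0.37). None of the 14 passed the limma test of a change from controls, where 2.10% of all genes did.

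Genes of the gas exchange surface and its vessels were lower in adults or did not pass. Of 16 endothelial markers, 6 were lower and none higher (median -0.37), or 3 without juvenile replicate 2. Kdr, the main VEGF receptor of endothelium, read 691, 613, 578 and 490 in adults and 901, 958 and 833 in juveniles (-0.58 ± 0.13, adjusted p = 0.0033). The ages did not overlap. The peptide ligand Apln (-0.65 ± 0.13) and the junction protein Cdh5 (-0.44 ± 0.11; adjusted p = 0.057 without juvenile replicate 2) were lower as well. Their summed intensity was 10591 to 12175 in adults and 13508 to 14032 in juveniles.

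Of 12 alveolar type 1 markers, 3 were lower in adults, where 4.94% of all genes were. Without juvenile replicate 3, 4 were lower and 1 was higher. The water channel Aqp5 read 905, 804, 854 and 951 in adults and 1102, 1085 and 1487 in juveniles (-0.45 ± 0.10, adjusted p = 0.0035). It had been higher in untreated adults (0.29), and the age difference changed by -0.74 ± 0.14 (adjusted p = 0.0061). The anchoring protein Akap5 was lower (-0.61 ± 0.11). Ager, an abundant type 1 cell transcript, did not pass after treatment (-0.26 ± 0.09), while its change from controls did (-0.46 ± 0.12, adjusted p = 0.046), a call that ended when any 1 of 11 of the 15 arrays of this test was left out (0.054 to 0.13). Of 11 alveolar type 2 markers, 0 passed with limma and 1 had an unadjusted p under 0.05. Sftpc differed by 0.08 ± 0.06 and Sftpa1 by 0.14 ± 0.06. Of 23 TGF-beta and BMP genes, 8 were lower, or 5 without juvenile replicate 3, adult replicate 2 or adult replicate 3. They included the ligands Tgfb2 (-0.70 ± 0.12) and Bmp2 (-0.47 ± 0.11) and the activin antagonist follistatin (Fst, -0.71 ± 0.15, or -1.09 with a pseudocount of 1).

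Among fat genes, Cidea and Ucp1 set adult replicate 2 apart, while Adipoq and Cidec still passed without that array. Adipoq, the hormone adiponectin of fat cells, read 182, 2146, 588 and 809 in adults and 48.1, 198 and 83.0 in juveniles (2.45 ± 0.55, adjusted p = 0.0033). Cidea, a lipid droplet protein, read 30.3, 436, 52.7 and 59.9 against 21.0, 21.1 and 24.1. Its difference of 1.18 ± 0.39 (adjusted p = 0.046) was lost without juvenile replicate 1, 2 or 3 or adult replicate 2 (0.082 to 0.16). Ucp1, the thermogenic protein of brown fat, stood at 669 on adult replicate 2 and at 17.9 to 44.1 on the other 6 arrays, and did not pass (1.10 ± 0.58). Of 6 fat markers, 4 were higher in adults, or 2 without adult replicate 2, juvenile replicate 1 or juvenile replicate 3. Cidec fell from 0.91 ± 0.19 to 0.59 without adult replicate 2. Fabp4, which alveolar macrophages also express, did not pass (1.33 ± 0.47). The summed intensity of the markers was 1029 to 8021 in adults and 563 to 1193 in juveniles, and their part in the other differences was not tested.

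Perp, a desmosome gene of stratified epithelium, was also highest on adult replicate 2, at 1008 against 228, 408 and 221 on the other adult arrays and 119 to 146 in juveniles (1.33 ± 0.28). Pln, a regulator of the cardiac calcium pump, read 120, 310, 421 and 248 against 81.4, 116 and 80.4 (1.21 ± 0.27). The atrial peptide Nppa was at 3564 on adult replicate 3 and 1223 on adult replicate 2, and did not pass (2.21 ± 1.02). The summed intensity of 10 cardiac muscle markers was 4703 to 17343 in adults and 6212 to 8346 in juveniles. Without both adult replicate 2 and juvenile replicate 3, a choice made after seeing the data, 1352 genes passed, of which 1041 were among the 1602.

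Other settings also ended calls. With only the compared groups fitted, 1001 of the 1602 genes passed. Cxcl1, Ccl8, Csf2, Myc, Saa1, Orm1, Ltf, Cd74, Ighm, Igkv8-30, Foxj1, Aldh3a1, Perp, Pln, Adipoq, Cidea, Cidec, Aqp5 and Pdk4 did not (adjusted p 0.05 to 0.28). Without the LPS+MV arrays of low Xist, 861 of the 1602 passed. Cxcl1, Cxcr2, Ppbp, Ccl8, Ccl6, Csf2, Myc, Egr2, Ifit3, Orm1, Ltf, Cd74, Bpifa1, Foxj1, Cdh5, Adipoq, Cidea and Pdk4 did not (0.051 to 0.3). With no filter Cxcl1, Cxcr2, Csf2 and Cidea did not pass (0.053 to 0.058), with a pseudocount of 1 Cxcl1, Cxcl10 and Csf2 did not (0.065 to 0.23), and with the mean of probe sets Cdh5 did not (0.06). Csf2 was also lost with quantile normalization (0.056), and Cidea with an Xist term (0.053) or no intensity trend (0.051).

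**Figure D4:**
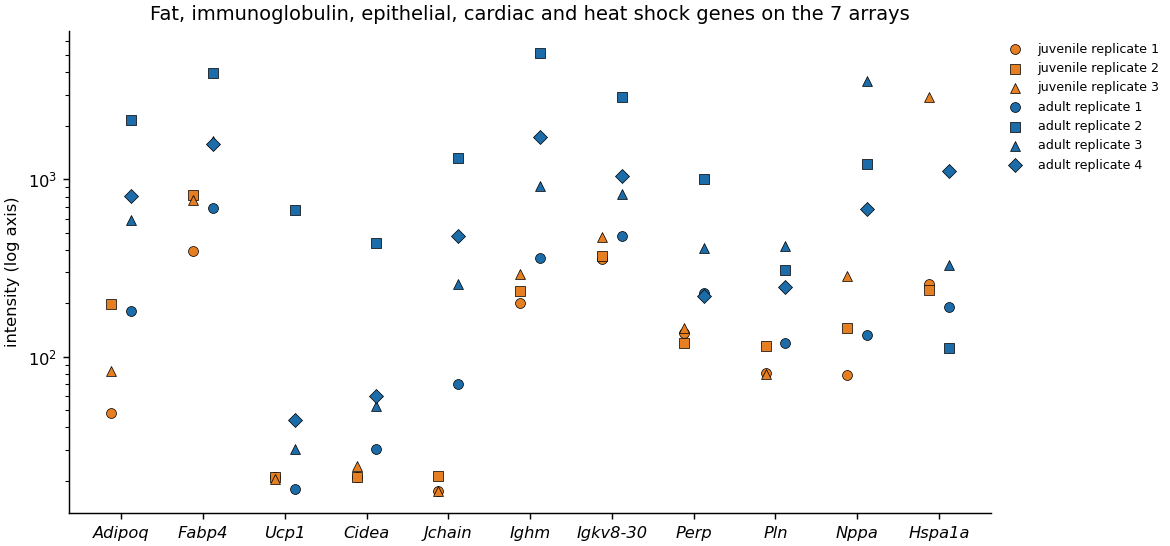
Intensity of 11 genes on the 7 arrays after LPS and ventilation, on a log axis, with orange symbols for juvenile and blue for adult arrays and 1 shape per replicate number. Adult replicate 2 (blue squares) is highest for the fat and immunoglobulin genes and Perp, as with Ucp1 at 669, and juvenile replicate 3 (orange triangles) is highest for Hspa1a at 2915.

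In several stress and growth programmes few or no genes passed. Of 14 heat shock genes, 0 passed with limma and 0 had an unadjusted p under 0.05, with Hspa1a at 113 to 1112 in adults and 239 to 2915 in juveniles. Of 16 circadian clock genes 0 passed and 2 had an unadjusted p under 0.05, and 1 passed without juvenile replicate 2. Of 31 proliferation genes, 2 were lower in adults (median -0.16), where 4.94% of all genes were, or 1 without juvenile replicate 1 or 2. One was the mitotic enzyme Ube2c (-1.14 ± 0.25), and the marker Mki67 did not pass (-0.83 ± 0.32). In untreated lungs 25 of the 31 had been lower in adults (median -0.64). The change in the age difference passed for 1 of the 31, where it passed for 2.10% of all genes.

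The age difference itself was compared with that in untreated lungs. It differed for 275 genes (2.10%), 112 in the direction of adults (0.856%) and 163 in that of juveniles (1.25%), with 2458 genes at an unadjusted p under 0.05. In 186 of the 275, the ages had differed in controls only, with adults higher in 119 and lower in 67. The difference was smaller in size after LPS and ventilation in 182 of these. In 52, the ages differed only after treatment, with adults higher in 32 and lower in 20. For 23 genes the direction turned. Of these, chosen here after their values were seen, the hedgehog receptor Ptch1 went from 0.31 to -0.57 ± 0.09 (change -0.88 ± 0.13, adjusted p = 0.0007) and the nucleolar protein Gnl3 from -0.22 to 0.40 ± 0.08 (change 0.63 ± 0.11, adjusted p = 0.0045). With the mean of its probe sets the age difference of Ptch1 after treatment was -0.29.

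The count of 275 moved with single arrays. It was 95 without juvenile control replicate 1, 167 without juvenile control replicate 2 and 1136 without juvenile control replicate 4. It was 464, 143 and 160 without adult control replicate 1, 3 or 4. Of the treated arrays, juvenile replicate 3 and adult replicate 3 moved it to 167 and 171.

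For 5 of 14 monocyte and macrophage markers the age difference changed, each time towards juveniles. Of all genes 2.10% changed, 1.25% towards juveniles. The chemokine receptor Ccr2, which marks inflammatory monocytes, stood at 547 ± 227 (SD, n = 4) in adult and 116 ± 44.4 (SD, n = 4) in juvenile controls. After LPS and ventilation it read 120, 161, 232 and 313 in adults and 361, 317 and 94.1 in juveniles, with full overlap (change -2.09 ± 0.52, adjusted p = 0.032). F13a1, a transglutaminase of monocytes, changed by -1.96 ± 0.42 (adjusted p = 0.016) and Plac8 by -1.53 ± 0.39. Ifitm6, which is not one of the 14 markers, changed by -2.58 ± 0.59 (adjusted p = 0.02). Of the 14 markers, 8 had been higher in adult controls and 2 were higher after treatment. The 2 became 0 without juvenile replicate 2 or adult replicate 4, and 1 without juvenile replicate 1 or 3 or adult replicate 3. The call for Ccr2 ended without any of 8 of the 15 arrays of this test (adjusted p 0.058 to 0.087), that for Plac8 without any of 9 (0.052 to 0.09), and that for Ifitm6 without juvenile control replicate 1 (0.051).

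For 2 of 18 glucocorticoid targets and metallothioneins the change in the age difference passed, where it passed for 2.10% of all genes. Zbtb16, a zinc finger factor strongly induced by steroids, stood at 104 ± 45.2 (SD, n = 4) in adult and 616 ± 303 (SD, n = 4) in juvenile controls. After treatment it read 670, 727, 330 and 520 in adults and 559, 624 and 626 in juveniles, so the ages overlapped (change 2.06 ± 0.41, adjusted p = 0.0087). Pdk4, a kinase that restrains glucose oxidation, was higher in adults after treatment, at 183, 526, 426 and 232 against 106, 123 and 156. Its age difference had changed by 1.77 ± 0.43 (adjusted p = 0.03). Fam107a, another stress-induced gene (1.69 ± 0.43, adjusted p = 0.038), and the natriuretic peptide clearance receptor Npr3 (1.21 ± 0.32, adjusted p = 0.04) changed likewise. Of the 18, 9 had been lower in adult controls (median -0.62). After treatment 1 was higher and 1 lower (median 0.15), or 0 and 1 without juvenile replicate 1 or 2 or adult replicate 2 or 3.

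Single arrays ended several of these calls. Those for Pdk4, Fam107a, Npr3 and Ngp ended without any of 6, 10, 8 and 10 of the 15 arrays of this test (adjusted p 0.057 to 0.066, 0.053 to 0.08, 0.057 to 0.094 and 0.054 to 0.083). The higher level of Pdk4 in adults after treatment (1.13 ± 0.32, adjusted p = 0.018) was lost without juvenile replicate 1 or 2 or adult replicate 2 or 3 (0.062 to 0.085). No single array ended the change in the age difference of Zbtb16, Cxcl3, Camp or F13a1. With only the compared groups fitted, 71 changes passed across all genes, and those of Pdk4, Fam107a, Npr3, Ngp, Ifitm6, Ccr2, F13a1, Plac8, Sparc, Ccl12, Ccl20, Il1rn, Slc26a4 and Ager did not (adjusted p 0.052 to 0.15).

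With the mean of probe sets, the change of Fam107a was 0.95 (adjusted p = 0.061), that of Ccr2 was -1.14 (0.052), and that of Ager did not pass (0.071). With an Xist term the changes of Npr3, Ngp, Plac8 and Ager did not pass (0.053 to 0.069). That of Ngp did not pass with a pseudocount of 1 (0.064), nor those of Npr3 and Ager with no filter (0.053 and 0.067).

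**Figure D5:**
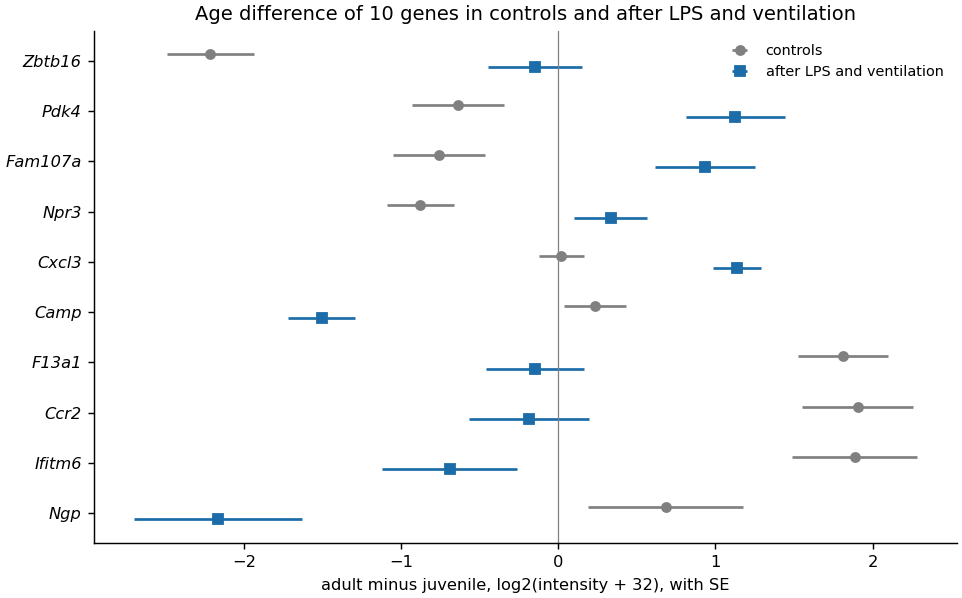
Age difference (adult minus juvenile log2(intensity + 32), with bars of 1 standard error) in controls (grey circles) and after LPS and ventilation (blue squares) for the 5 genes with the highest and the 5 with the lowest passing change between them. Zbtb16, Ccr2 and F13a1 lie far from 0 in controls and near 0 after treatment, while Cxcl3 and Camp do the reverse.

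Against LPS without ventilation, the age difference changed for 22 genes (0.168%), 14 towards adults (0.107%) and 8 towards juveniles (0.0611%), with 1512 at an unadjusted p under 0.05. The count was 13 without juvenile LPS replicate 1 and 36 without adult LPS+MV replicate 4. Csf2 was higher in juveniles after LPS alone, at 819 ± 190 (SD, n = 4) against 387 ± 80.6 (SD, n = 4) in adults, the opposite of its order after LPS and ventilation (change 1.53 ± 0.22, adjusted p = 0.0037). Il1rn was at 412 ± 20.7 in juveniles and 328 ± 22.8 in adults after LPS alone (SD, n = 4 each; change 0.96 ± 0.17, adjusted p = 0.0091). The acute phase gene Orm1 (1.59 ± 0.29), the ephrin Efna1 (0.93 ± 0.16) and the NADPH oxidase organiser Noxo1 (0.79 ± 0.13) also changed towards adults. Ccn2, a matricellular protein induced by stretch and TGF-beta, was at 698 ± 140 (SD, n = 4) in juveniles after LPS alone and at 1557, 1945 and 1903 after LPS and ventilation. Adults held 1044 ± 226 (SD, n = 4) and then 994, 931, 925 and 983 (change -1.44 ± 0.27, adjusted p = 0.016).

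Camp (-1.41 ± 0.29), Mid1, a microtubule-associated ubiquitin ligase (-1.01 ± 0.17), Disp2 (-0.81 ± 0.14) and the unannotated transcript G530011O06Rik (-2.0 ± 0.36) also changed towards juveniles between LPS alone and LPS with ventilation. The call for Ccn2 ended without juvenile LPS replicate 1 or juvenile LPS+MV replicate 2 (adjusted p 0.051 and 0.055). That for Camp ended without any of 10 of 15 arrays (0.054 to 0.11). With only the compared groups fitted, Orm1, Mid1 and G530011O06Rik did not pass (0.05 to 0.086), and with a pseudocount of 1 Camp and G530011O06Rik did not (0.099 and 0.079).

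Against ventilation without LPS, the change passed for 18 genes (0.138%), 10 towards adults (0.0764%) and 8 towards juveniles (0.0611%), with 1547 at an unadjusted p under 0.05. The count was 9 and 82 without juvenile MV replicate 1 or 3, 11 without juvenile LPS+MV replicate 3, and 35 and 11 without adult LPS+MV replicate 1 or 4. Il33, an alarmin of the alveolar epithelium, was at 1210 ± 202 (SD, n = 4) in adults and 381 ± 203 (SD, n = 3) in juveniles after ventilation alone. After LPS and ventilation it read 1559, 1484, 1483 and 1254 against 1058, 1127 and 1095, a smaller gap that did not pass (0.39 ± 0.18; change -1.29 ± 0.25, adjusted p = 0.021). Cckar, the cholecystokinin receptor, was at 259 ± 27.9 (SD, n = 4) and 108 ± 14.0 (SD, n = 3) after ventilation alone and near background, 16.3 to 30.4, on all 7 arrays after LPS and ventilation (change -1.12 ± 0.13, adjusted p = 3.3e-05). The plasma proteins Cp (-0.94 ± 0.16) and Itih4 (-1.49 ± 0.29) and the LPS co-receptor Cd14 (-0.82 ± 0.17) changed the same way.

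Endothelin 1 (Edn1, 1.04 ± 0.21), the salt-regulating kinase Sgk1 (1.08 ± 0.19), Fam13a (1.07 ± 0.20), the adaptor Cass4 (1.40 ± 0.27) and the ubiquitin ligase Rnf180 (0.96 ± 0.15) changed towards adults. Rnf180 read 110, 87.5, 97.8 and 116 in adults and 41.7, 44.0 and 40.6 in juveniles after LPS and ventilation (0.86 ± 0.11), with no overlap. Calls ended without any of 10 of 14 arrays for Cd14 (adjusted p 0.05 to 0.1), 6 for Edn1 (0.063 to 0.1), 5 for Il33 (0.052 to 0.089) and 4 for Itih4 (0.056 to 0.089). That for Fam13a ended without juvenile MV replicate 1 or juvenile LPS+MV replicate 2 (0.072 and 0.057), and that for Cass4 without juvenile LPS+MV replicate 3 (0.083). With only the compared groups fitted, Cass4, Fam13a, Edn1, Itih4, Il33, Cp and Cd14 did not pass (0.07 to 0.19). With an Xist term Edn1, Itih4, Il33 and Cd14 did not (0.052 to 0.15). The change of Cp was -0.57 with the mean of its probe sets (adjusted p = 0.056), Edn1 did not pass with quantile normalization (0.063), and Cd14 did not with no filter (0.054).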

How the data were processed

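RNA of 30 whole lungs, 1 array per animal, was read as probe set intensity on a linear scale, as deposited by the authors, whose normalization is not given in the sources used here. MAS5 is named in the submitters' processing notes. Of 45037 probe sets, 34945 carried 1 gene symbol, 932 several and 9160 none listed. The 34741 found in RefSeq's table kept their symbols. The 24825 probe sets that exceeded their array's median on 3 arrays or more were kept, and each gene was read from the one with the highest mean (13089 of 18193 genes, 5611 of them with several).

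The linear model of limma 3.58.1 (R 4.3.3), moderated with a trend in intensity, was run on log2(intensity + 32) of all 30 arrays with 8 group means (22 residual and 4.87 prior degrees of freedom). Tests were two-sided, with Benjamini-Hochberg adjustment over all 13089 genes, threshold 0.05, and tested on simulated data. Changes of an age difference are interaction contrasts. Labels give each sample as 1 animal; litter, sex and batch are not given in the sources used here.

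Named are the 12 highest and 12 lowest passing genes without overlap, the 5 highest and 5 lowest per change, and from each of 44 lists up to 6 members with the smallest p; other members may be named with their values. The samples, lists and rules were chosen with earlier results of these data known. Alternatives were a pseudocount of 1, quantile normalization, means of probe sets, no filter, no trend and array weights. Others were fewer groups, a replicate block and an Xist term. Arrays were also left out: those of low Xist after LPS and ventilation, each in turn and, added later, 2 together. Figures were drawn with matplotlib 3.10.9.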

Additional observations from a re-analysis of the deposited data

Results flagged for a closer look

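In 10 cases 1 of the 4 adult arrays lay far from the other 3 by Dixon's test, which chance passes in about 1 in 20 groups. The text names 144 genes, and whether 10 cases exceed the number that chance gives among them was not tested. The highest array stood apart for Mmp3 (intensity 561), Hhip (94.0), Slc4a1 (49.2), Cxcl10 (3240), Cidea (436), Ucp1 (669) and Ifi27l2a (1735). The lowest stood apart for Alas2 (495), Tnfsf13b (219) and Sftpa1 (11523). Adult replicate 2 is the array that stood apart for Cidea, Ucp1, Ifi27l2a, Alas2 and Sftpa1.

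By the limma test of the change itself, the age difference (adult minus juvenile, log2) after LPS and ventilation differed from that in controls for 275 genes. The changes towards adults with the largest size were 2.06 for Zbtb16, 1.77 for Pdk4, 1.69 for Fam107a, 1.21 for Npr3 and 1.12 for Cxcl3. Those towards juveniles were -2.85 for Ngp, -2.58 for Ifitm6, -2.09 for Ccr2, -1.96 for F13a1 and -1.74 for Camp.

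Against LPS alone, 22 genes passed the same test. The change was 1.59 for Orm1, 1.53 for Csf2, 0.96 for Il1rn, 0.93 for Efna1 and 0.79 for Noxo1. It was -2.0 for G530011O06Rik, -1.44 for Ccn2, -1.41 for Camp, -1.01 for Mid1 and -0.81 for Disp2.

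Against ventilation alone, 18 genes passed. The change was 1.40 for Cass4, 1.08 for Sgk1, 1.07 for Fam13a, 1.04 for Edn1 and 0.96 for Rnf180. It was -1.49 for Itih4, -1.29 for Il33, -1.12 for Cckar, -0.94 for Cp and -0.82 for Cd14.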

How the results depend on the processing

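The count of 1602 genes after LPS and ventilation became 3891 with array weights and 919 without the LPS+MV arrays of low Xist. It lay between 1010 and 1574 with 1 array left out. With quantile normalization, a pseudocount of 1, no filter, means of probe sets, no trend, only the compared groups or an Xist term it stayed within 1.5 times. The control count of 3301 lay between 2483 and 3900 with 1 array left out. The count of 275 for the change from controls became 1723 with array weights, 71 with only the groups compared, 418 with the replicate block and 121 without adult replicate 2 and juvenile replicate 3 together, and lay between 95 and 1136 with 1 array left out. The 22 against LPS alone became 36 with means of probe sets, 233 with array weights and 34 with the replicate block, and lay between 13 and 36 with 1 array left out. The 18 against ventilation alone became 722 with array weights, 8 with only the groups compared and 40 with the replicate block, and lay between 9 and 82 with 1 array left out. The cause of these moves was not tested, apart from the fewer samples in the fits that leave arrays out.

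The replicate block gave 1703 genes after LPS and ventilation. Deviations of same-numbered adult and juvenile arrays correlated at -0.0397, 0.109 and 0.249 after LPS and ventilation, and at -0.0756 to 0.257 in the other conditions. The labels give the number no meaning, and whether same-numbered arrays share a batch was not tested. With 7 arrays against a median standard error of 0.09, small differences can be missed, and dim genes are limited by background. Of 3782 values of named genes under the alternatives, 3408 kept their side of the threshold, 338 no longer passed and 36 newly passed. None that passed in the main fit or newly passed had reversed. Direction was not checked for values that passed in neither. Of the 106 named genes that passed after LPS and ventilation, 61 kept call and direction in every alternative, their named changes included.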
